A study of Canis lupus familiaris with 18 samples.

Results

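The genes described here encode the contractile apparatus of the heart muscle cell: the thick and thin filaments of the sarcomere, the Z-disc in which thin filaments are anchored, and enzymes and chaperones that act on them. They were taken as a list of 41 gene symbols. Of these, 40 had a probe set carrying their symbol alone, among 15115 genes so named on the array, and each was represented by its probe set with the highest mean signal. TNNI1, the slow skeletal troponin I, had no such probe set. LMOD3, a leiomodin best known from skeletal muscle, had a mean log2 signal of 4.75, under the limit of 5.31 of the signal filter, so 39 members were tested. By role, the tested members were 5 genes of the thick filament and M-band, 12 of the thin filament and its ends, 16 of the Z-disc with its intermediate filaments and chaperone, and 6 ubiquitin ligases, lysine methyltransferases and a myosin folding factor.

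The sarcomere shortens when myosin heads of the thick filament pull on actin of the thin filament, which the troponins and tropomyosin open and close with calcium. Titin spans from the Z-disc to the M-band and acts as a spring, and Z-disc proteins such as the calsarcins (MYOZ) and the PDZ and LIM domain proteins (PDLIM) link the filaments to each other and to signalling enzymes. Atrial and ventricular myocytes build the same machine with partly different isoforms.

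The arrays measured total RNA of the right atrium (RA) and right ventricle (RV) of adult dogs, mongrels or beagles, with 3 arrays in each of 6 groups and 18 in all. Each chamber had a control group, a group with early heart failure (HF), produced by 2 weeks of ventricular tachypacing, and a group with late HF, produced by 5 weeks of it; the protocol gives 2 to 3 and 5 to 6 weeks of continuous pacing. The breed and sex of each dog were not stated, and no genetic change was involved. The replicates are called biological but no animal is identified, so p-values reflect only how far these samples spread, which may be technical.

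Values are log2 signals per probe set. Levels of different genes' probe sets cannot be compared with each other. Differences between groups are given on the log2 scale, each with its standard error (SE) from a limma fit to all arrays, n = 3 arrays per group. A member is said to have risen, fallen or differed where its adjusted p (limma, two-sided, Benjamini-Hochberg over 25752 probe sets) was under 0.05. Of the members, 6 (TTN, TPM1, TNNI3, TNNT2, TNNC1 and ACTC1) averaged 13 or more, near the highest signals on the arrays of 14.4 to 14.49, where differences can be compressed.

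A pair of late HF libraries stood apart from their groups. In the library labelled RA late 3, the ventricular light chains MYL2 and MYL3 stood at 14.17 and 13.89, within or next to the ranges of 14.13 to 14.17 and 14.02 to 14.15 in RV controls, and the atrial enzyme PAM stood at 10.61, against 13.33 to 13.40 in RA controls. In RV late 1, MYL2 was 12.76 and MYL3 12.35, below all other RV arrays. Results are therefore given with all arrays and without RA late 3. Because all groups share a single estimate of the spread, leaving out RA late 3 also changed the tests of comparisons that do not contain it. The 3′ minus 5′ signal of GAPDH, a sign of RNA quality, lay between 1.03 and 1.62 in all arrays.

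**Figure D1:**
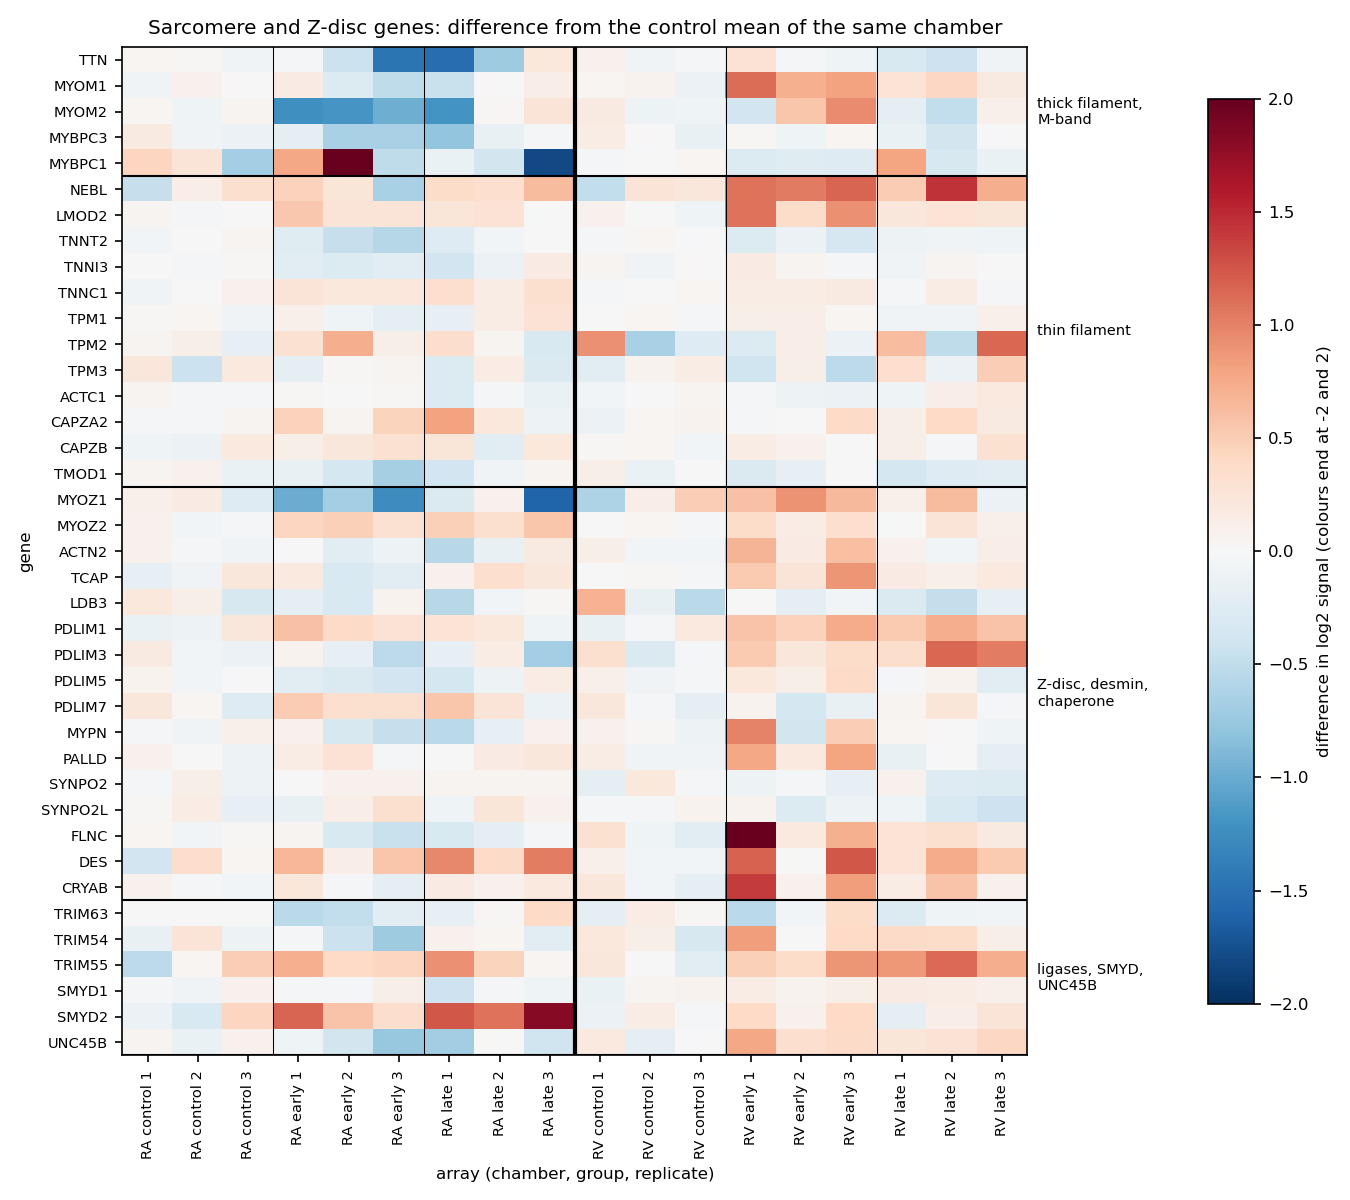
Heat map of the 39 tested members (vertical axis) in the 18 arrays (horizontal axis, by chamber, group and replicate). Colour gives the log2 signal minus the mean of the 3 control arrays of the same chamber. SMYD2 stands out in the RA late HF arrays, and a block of Z-disc genes, among them FLNC, CRYAB and DES, in RV early HF replicates 1 and 3.

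The comparison of RA with RV in controls asks which parts of the contractile apparatus differ between the healthy chambers. SMYD2, MYOZ2 and TNNC1 were lower in RA, and MYOZ1 and PDLIM1 were higher. These are 5 of 39 members, against 2.9% of all probe sets tested. The median difference over the members was -0.03, beside -0.02 over all probe sets. In 7 members every RA control lay above every RV control and in 8 every RA control lay below, where 13% and 13.6% of all probe sets did so. At unadjusted p under 0.05, 6 members were higher and 4 lower (8.2% and 8.1% of all probe sets).

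SMYD2, a lysine methyltransferase that associates with titin in the I-band, had the largest difference of the 39 members. Its signal was 8.24, 8.06 and 8.79 in RA controls and 10.03, 10.29 and 10.12 in RV controls. The groups did not overlap, and the lowest RV array lay more than 1 log2 unit above the highest RA array. The difference was -1.78 (SE 0.23, adjusted p = 0.000735), a fold of 0.291, and all 4 probe sets of the gene were lower, by log2 differences of -2.12 to -0.89. The call held when any 1 of the 18 arrays was left out, with a highest adjusted p of 0.00715 in limma.

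The calsarcins, Z-disc proteins that bind alpha-actinin and the phosphatase calcineurin, differed in opposite directions. MYOZ2, the calsarcin of heart and slow muscle, stood at 12.41, 12.27 and 12.28 in RA controls and at 12.93, 12.95 and 12.87 in RV controls. The groups were separate, with a difference of -0.60 (SE 0.09, adjusted p = 0.00225) that also held without any 1 array (highest adjusted p 0.0191 in limma). MYOZ1, the calsarcin best known from fast skeletal muscle, stood at 9.43, 9.48 and 9.06 in RA controls and at 7.16, 7.92 and 8.27 in RV controls. All RA values were higher, by 1.54 on average (SE 0.35, adjusted p = 0.025), and both of its probe sets passed. The MYOZ1 call was lost without RA control 1, 2 or 3 (adjusted p = 0.079, 0.0916 and 0.0582 in limma) and without RV control 1 or 2 (0.114 and 0.0736).

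PDLIM1, which binds alpha-actinin, measured 10.71, 10.74 and 11.07 in RA controls against 10.02, 10.13 and 10.37 in RV controls. The RA arrays were all higher, by 0.67 (SE 0.14, adjusted p = 0.0134), and both probe sets of the gene passed. TNNC1, the calcium sensor of the thin filament, measured 13.30, 13.37 and 13.46 in RA controls and 13.68, 13.71 and 13.76 in RV controls. Its difference was small at -0.34 (SE 0.07, adjusted p = 0.018) with no overlap. PDLIM1 lost its call without RA control 3, RV control 1 or RV control 2 (adjusted p = 0.0882, 0.069 and 0.0698 in limma). TNNC1 lost it without RA control 1 or 2 (0.0833 and 0.0682) and without RV control 1, 2 or 3 (0.0518, 0.0763 and 0.0721). TNNC1 also lost it with no signal filter (0.0883), with the mean over its probe sets (0.0561) and without probe sets that may cross-hybridise (0.115).

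A further pair of members passed only in some fits. MYBPC1, the slow skeletal form of myosin-binding protein C, read 8.66, 8.48 and 7.55 in RA controls but 6.46, 6.52 and 6.54 in RV controls. It was higher in every RA control, by 1.72 (SE 0.52), with adjusted p = 0.0901 with all arrays and 0.0344 without RA late 3 in limma. PDLIM3, the actinin-associated LIM protein, stood at 9.85, 9.62 and 9.56 against 9.17, 8.56 and 8.82, a difference of 0.83 (SE 0.23) with adjusted p = 0.0677 and 0.0236 in the same fits. No label pairs RA with RV arrays, but deviations of same-numbered controls correlated at 0.24 to 0.42. With a replicate block that treats same-numbered arrays as pairs, MYBPC1 and PDLIM3 passed (adjusted p = 0.0436 and 0.0404 in limma). The count was then 7 members, against 3.74% of all probe sets. In the fit without RA late 3, 7 members differed, 4 higher and 3 lower in RA, where 5.66% of all probe sets did.

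**Figure D2:**
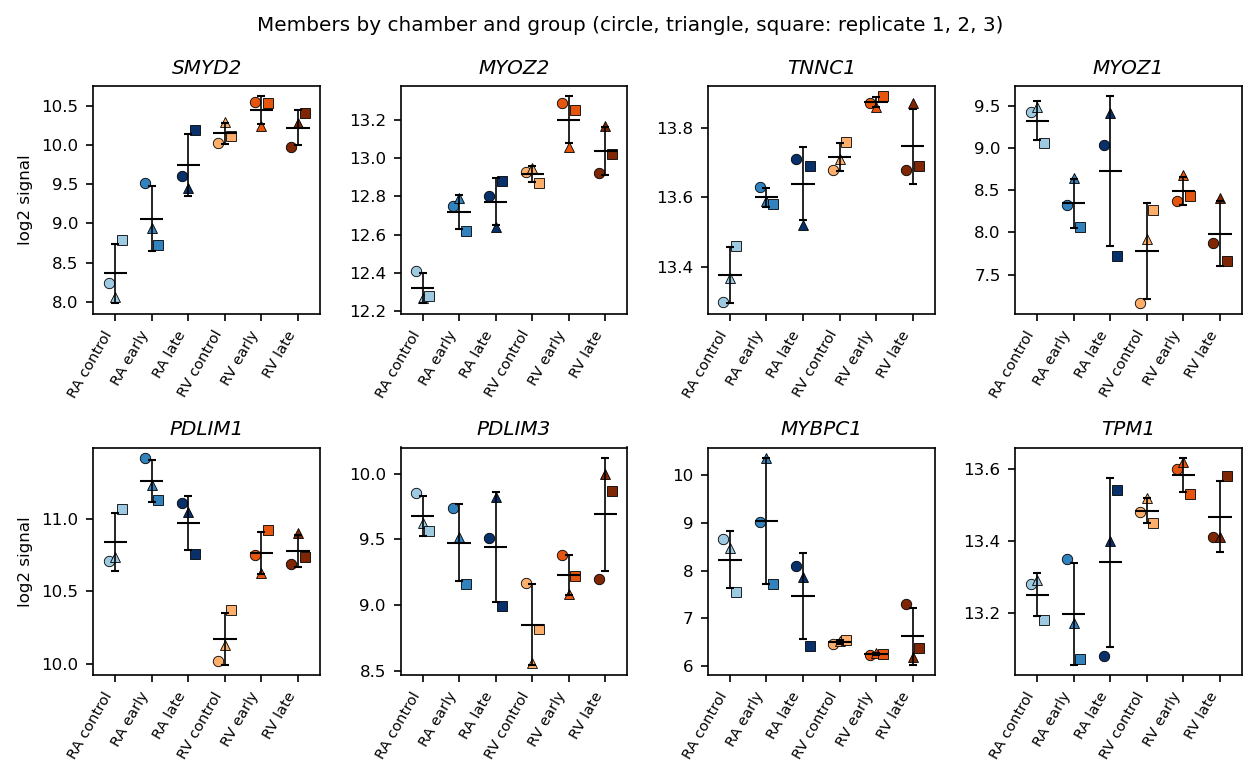
Log2 signal (vertical axis) of members by group (horizontal axis). Replicates 1, 2 and 3 are circle, triangle and square, with the mean and SD as bars. All members shown except TPM1 differed between RA and RV controls with all arrays or without RA late 3. For TPM1 the adjusted p was 0.266 and 0.151 in these limma fits. For SMYD2 the RA controls lie between 8.06 and 8.79 and the RV controls between 10.03 and 10.29.

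In the other roles the control chambers gave few differences. Cardiac titin (TTN), the giant spring of the sarcomere, read 13.33 to 13.44 in RA controls and 13.31 to 13.47 in RV controls. The cardiac myosin-binding protein C gene MYBPC3 averaged 11.20 (SD 0.16) and 11.14 (SD 0.15), and troponin T (TNNT2) read 13.64 to 13.75 and 13.66 to 13.75. The arrays of the chambers overlapped in each of these chosen probe sets. Of 19 tested TTN probe sets, 16 were higher in RA and 3 lower, with differences from -0.09 to 1.33. Of 4 MYBPC3 probe sets, 1 was higher and 3 lower, from -0.71 to 0.06. None of them passed, with all arrays or without RA late 3. ACTC1, cardiac actin, was at 13.93, 13.86 and 13.85 in RA against 13.64, 13.69 and 13.74 in RV, a difference of 0.19 (SE 0.08) whose adjusted p was 0.239 in limma.

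Early HF in RA was compared with RA controls to ask how the atrial apparatus changed by 2 weeks of pacing. TNNT2 fell, and no member rose with all arrays. This is 1 of 39 members, against 0.812% of all probe sets. Before adjustment, 7 members were higher and 9 lower at p under 0.05, where 6.27% and 7.67% of all probe sets were. In 6 members every early HF array lay above every control and in 8 every one lay below (8.7% and 10.1% of all probe sets). The median over the members was -0.03, beside -0.02 over all probe sets.

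TNNT2, the tropomyosin-binding subunit of troponin, read 13.64, 13.69 and 13.75 in RA controls and 13.45, 13.23 and 13.13 in RA early HF. Every early HF array was lower, and the change was -0.42 (SE 0.09, adjusted p = 0.0389), a fold of 0.746. All 3 probe sets of TNNT2 fell, by -0.64 to -0.42. The call rested on a narrow margin: it was kept without RA early 1, RA late 1, 2 or 3, or RV early 1 or 2, and was lost when any of the other 12 arrays was left out, with adjusted p up to 0.156 in limma. It was also lost with no signal filter (adjusted p = 0.0935). In RA late HF the signal was 13.43, 13.64 and 13.70, which overlaps the controls.

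Without RA late 3, MYOM2 and MYOZ1 also fell in RA early HF and MYOZ2 rose, which gave 1 member higher and 3 lower, against 3.22% of all probe sets. MYOM2, a myomesin that crosslinks thick filaments at the M-band, read 10.21, 10.08 and 10.22 in RA controls but 8.95, 8.99 and 9.19 in RA early HF. The groups were nearly 1 log2 unit apart at their closest, with a change of -1.13 (SE 0.32) and adjusted p = 0.108 with all arrays and 0.0468 without RA late 3 in limma. All 9 probe sets of MYOM2 had a negative difference, from -1.13 to -0.17. The late HF arrays read 8.97, 10.19 and 10.42, so only RA late 1 stayed near the early HF level. Without RA late 1, MYOM2 passed as well (adjusted p = 0.0179 in limma).

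MYOZ1, higher in RA than RV controls, read 8.33, 8.64 and 8.06 in RA early HF, below the RA controls at 9.06 to 9.48. The MYOZ1 change was -0.98 (SE 0.35), with adjusted p = 0.196 with all arrays and 0.0412 without RA late 3 in limma. MYOZ2 read 12.75, 12.79 and 12.62, above all RA controls at 12.27 to 12.41. That of MYOZ2 was 0.40 (SE 0.09), with adjusted p = 0.0531 with all arrays and 0.0203 without RA late 3 in limma. Leaving out RA late 1, RV early 1 or RV early 2 also brought MYOZ2 past the threshold (adjusted p = 0.0257, 0.0499 and 0.0454). This comparison shares the RA controls with that of RA against RV, where MYOZ1 differed by 1.54 and MYOZ2 by -0.60.

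Other atrial genes with separate groups did not pass, and MYBPC3 and TRIM63 were named after their values were seen. MYBPC3 read 11.02, 10.55 and 10.56 in RA early HF against 11.39, 11.13 and 11.09 in controls. TRIM63 (MuRF1), a muscle ubiquitin ligase, read 9.19, 9.23 and 9.50 against 9.73, 9.72 and 9.72. Their differences were -0.49 (SE 0.18, adjusted p = 0.201) and -0.42 (SE 0.19, adjusted p = 0.325). TTN read 13.35, 12.97 and 11.94 in RA early HF, overlapping the controls, with a difference of -0.64 (SE 0.34, adjusted p = 0.433). All 19 tested TTN probe sets had a negative difference there, from -1.55 to -0.10, and none passed with all arrays. Without RA late 3, a single TTN probe set passed, with a difference of -1.49 and adjusted p = 0.046 in limma.

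Markers of other cells moved with early HF in RA. The mean signal of 10 fibroblast markers was 8.69 to 8.85 in RA controls and 9.59 to 10.48 in RA early HF, and that of 10 macrophage markers was 7.08 to 7.19 and 7.62 to 8.29. The log2 of the summed signal of 6 ventricular myocyte markers was 9.17 to 10.25 in controls and 10.76 to 12.66 in early HF, while that of 9 atrial myocyte markers was 15.62 to 15.68 and 15.38 to 15.42. The difference in the ventricular sum lay in MYL2 and MYL3. MYL3 read 7.59, 7.91 and 7.97 in RA controls and 9.24, 10.86 and 9.04 in RA early HF. The other ventricular markers, IRX3, IRX4, IRX5 and HAND1, overlapped the controls. IRX3, for example, read 7.52, 7.51 and 7.53 in controls and 7.53, 7.71 and 7.49 in early HF. The part of these markers in the member results was not tested. In tissue RNA, fewer myocytes and less RNA per myocyte cannot be told apart.

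**Figure D3:**
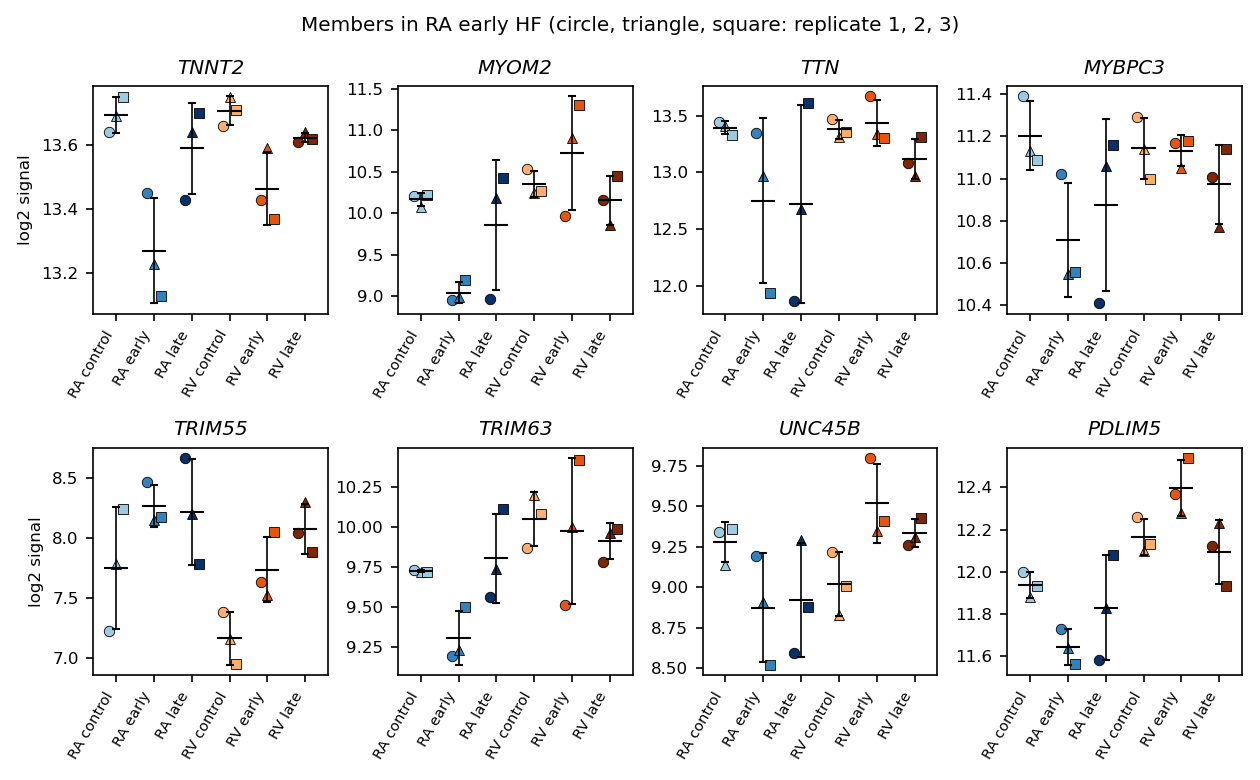
Log2 signal (vertical axis) of 8 members by group (horizontal axis), with replicates 1, 2 and 3 as circle, triangle and square and the mean and SD as bars. TNNT2 and MYOM2 lie below their RA controls in all 3 RA early HF arrays, and TTN spreads from 11.87 to 13.61 within RA late HF.

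Late HF in RA gave a single call. SMYD2 rose, and no member fell, against 0.0699% of all probe sets called. Before adjustment 4 members were higher and 0 lower at p under 0.05 in limma (6.78% and 4.94% of all probe sets). In 6 members every late HF array lay above every control and in 0 members below (6.16% and 6.22% of all probe sets). The median over the members was -0.02, beside -0.01 over all probe sets. These counts changed when RA late 3 was left out: 7 members were then higher and 4 lower at unadjusted p under 0.05 (11.5% and 7.63% of all probe sets). In 9 members both remaining arrays lay above every control and in 7 both lay below (15.8% and 16.4%).

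SMYD2 stood at 9.60, 9.45 and 10.19 in RA late HF, above all RA controls (8.06 to 8.79). The change was 1.38 (SE 0.23, adjusted p = 0.0272), a fold of 2.61, and 2 of its 4 probe sets passed while all 4 were positive. The highest value, 10.19, was that of RA late 3. Leaving that array out gave a change of 1.16 (SE 0.23, adjusted p = 0.0219). The call was lost without RA control 1, RA control 2 or RA late 1 (adjusted p = 0.188, 0.0936 and 0.0862 in limma). It was also lost when only the groups compared were fitted (adjusted p = 0.726). In RA early HF, SMYD2 read 9.52, 8.94 and 8.72, between the controls and late HF, and RA early 3 overlapped the controls; the difference was 0.70 (SE 0.23, adjusted p = 0.157).

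MYOZ2 read 12.80, 12.64 and 12.88 in RA late HF, again above every RA control, with a change of 0.45 (SE 0.09, adjusted p = 0.0896). Without RA late 3 it rose by 0.40 (adjusted p = 0.0487 in limma), and it also passed without RA late 2 (adjusted p = 0.0481), so that 2 of 39 members rose without RA late 3, against 1.65% of all probe sets. TNNC1 read 13.71, 13.52 and 13.69 in RA late HF against 13.30 to 13.46 in controls, a difference of 0.26 (SE 0.07) with adjusted p = 0.21. In the same arrays the ventricular markers had a log2 summed signal of 11.18 to 15.07, against 9.17 to 10.25 in RA controls, with MYL2 at 10.99, 10.59 and 14.17. MYL2 had no single level in RA controls either, at 6.51, 6.04 and 9.38. The ventricular markers IRX3 and IRX5 were highest in RA late 3. IRX3 read 7.44, 7.67 and 8.46 against 7.52, 7.51 and 7.53 in RA controls, and IRX5 read 4.99, 5.62 and 8.10 against 5.02, 5.22 and 5.24. MYOZ2 and TNNC1 also lay above every control in RV early HF, without passing. MYOZ2 read 13.29, 13.06 and 13.25 there against 12.87 to 12.95 in RV controls, by 0.28 (adjusted p = 0.319 in limma). TNNC1 read 13.87, 13.86 and 13.89 against 13.68 to 13.76, by 0.16 (adjusted p = 0.577). SMYD2 overlapped the RV controls there, with a difference of 0.30 (adjusted p = 0.829). The part of the ventricular markers in the SMYD2, MYOZ2 and TNNC1 values was not tested.

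Thick filament genes spread widely within RA late HF. TTN stood at 11.87, 12.68 and 13.61, MYOM2 at 8.97, 10.19 and 10.42 and MYBPC3 at 10.41, 11.06 and 11.16. RA late 1 was the lowest array for each of them and RA late 3 the highest. The mean of 10 fibroblast markers took the opposite order in these arrays, at 10.26, 9.16 and 8.30, seen after the fact. It was 8.69 to 8.85 in RA controls and 7.91 to 8.12 in RV controls. Within that list, PDGFRA (6.95, 6.82 and 6.90) and TCF21 (4.83, 4.83 and 4.96) did not follow this order. The part of these markers in the thick filament values was not tested. All 5 thick filament and M-band members had a negative difference from RA controls, with a median of -0.33 and none past the threshold. Leaving out RA late 3 moved the TTN difference from -0.67 (adjusted p = 0.458) to -1.12 (adjusted p = 0.0599 in limma), with both remaining arrays below every control. Of the 19 tested TTN probe sets, those that passed in that fit had adjusted p = 0.0312 and 0.0367 in limma. MYBPC1 also spread widely, at 8.09, 7.87 and 6.43 in RA late HF and at 9.01, 10.36 and 7.72 in RA early HF.

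Early HF in RV was compared with RV controls to ask how the ventricular apparatus changed by 2 weeks of pacing. LMOD2 rose, and no member fell. This is 1 of 39 members, against 0.105% of all probe sets. Before adjustment 14 members, LMOD2 among them, were higher and 1 lower at p under 0.05, where 4.13% and 4.35% of all probe sets were. In 14 members every early HF array lay above every control and in 2 every one lay below, where 7.35% and 8.46% of all probe sets did. The median over the members was 0.23, beside -0.01 over all probe sets, and 69.2% of members were positive, beside 47.1% of all probe sets.

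LMOD2, the cardiac leiomodin that lengthens the pointed end of the thin filament, read 10.98, 10.90 and 10.81 in RV controls and 11.98, 11.27 and 11.81 in RV early HF. The groups were separate, with RV early 2 the nearest to the controls. The change was 0.79 (SE 0.15, adjusted p = 0.0497), a fold of 1.73, and all 4 LMOD2 probe sets were positive, from 0.72 to 1.17. The call lay at the threshold: it was kept without RA early 1, RA late 1, RA late 3 or RV early 2 and lost when any of the other 14 arrays was left out, with adjusted p up to 0.272 in limma. It was also lost with no signal filter (adjusted p = 0.0639), with only the groups compared (0.149), with the mean over its probe sets (0.0763) and without probe sets that may cross-hybridise (0.0591). By late HF the signal was 11.12, 11.17 and 11.14, still above each control, with a difference of 0.25 and adjusted p = 0.614. LMOD2 also lay above every control in RA early HF, at 11.59, 11.31 and 11.31 against 11.01 to 11.11. That difference was 0.35 (SE 0.15, adjusted p = 0.288 in limma), and all 4 probe sets were positive, from 0.35 to 0.63. In RA late HF it read 11.30, 11.34 and 11.05, which overlaps the RA controls.

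MYOM1, the myomesin of the M-band present in all striated muscle, read 12.01, 12.03 and 11.85 in RV controls and 13.08, 12.68 and 12.77 in RV early HF. All early HF arrays were higher, by 0.88 (SE 0.16), with adjusted p = 0.0543 with all arrays and 0.0179 without RA late 3 in limma. A second MYOM1 probe set rose by 1.29 and passed with all arrays. The chosen MYOM1 probe set also passed without RA early 1, RA early 3, RA late 1 or RV early 2 (adjusted p = 0.0238, 0.0415, 0.02 and 0.016). PDLIM1 read 10.75, 10.63 and 10.92 against 10.02, 10.13 and 10.37 in controls, a change of 0.59 (SE 0.14) with adjusted p = 0.0976, and 0.0457 without RA late 3. Without RA late 3, these 3 members rose and 0 fell, against 0.54% of all probe sets. PDLIM1 also lay above every control in RA early HF, at 11.42, 11.23 and 11.13 against 10.71 to 11.07. That difference was 0.42 (SE 0.14, adjusted p = 0.152 in limma). A second PDLIM1 probe set was higher by 0.57 there, with adjusted p = 0.051, and 0.0172 without RA late 3. In RA late HF the chosen probe set read 11.11, 11.05 and 10.76, which overlaps the RA controls.

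Within RV early HF, replicate 2 differed from the other two for several Z-disc genes, which are named here after their values were seen. Filamin C (FLNC), an actin crosslinker of the Z-disc, read 10.89, 9.09 and 9.61, with controls at 9.20, 8.81 and 8.67. All 4 FLNC probe sets had a positive difference with all arrays, from 0.07 to 0.97, with the chosen one the largest. CRYAB, a small heat shock protein that binds desmin and titin, read 13.35, 12.04 and 12.78, with controls at 12.18, 11.90 and 11.77. Desmin (DES), the intermediate filament around Z-discs, read 12.39, 11.20 and 12.45, with controls at 11.32, 11.16 and 11.16. In each of these genes RV early 2 lay within the range of the controls and RV early 1 and 3 lay above it. For PALLD, the actin scaffold palladin, RV early 2 at 7.19 lay just above the controls (6.92 to 7.14), with RV early 1 and 3 at 7.77 and 7.79. Within RV early HF, replicate 2 also stood apart in adipocyte markers: the log2 summed signal of 6 was 12.31 there and 10.03 and 9.91 in RV early 1 and 3. The adipokine ADIPOQ read 10.87 against 7.07 and 7.01, but PLIN1 read 6.22 against 6.47 and 6.23, and PLIN4 5.81 against 5.69 and 5.77. The summed signal was 9.37 to 11.01 in RV controls and 10.82 to 12.18 in RV late HF. Its part in the member values was not tested.

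The fit without RV early 2 is singled out because of these values, so it is no independent support for them. It gave 8 members higher in RV early HF and 0 lower, against 1.19% of all probe sets. They were LMOD2, higher by 1.00 (adjusted p = 0.000847), PALLD by 0.78 (0.00333), CRYAB by 1.11 (0.00568), DES by 1.21 (0.0128) and MYOM1 by 0.96 (0.016). FLNC was higher by 1.36 (0.0185), TCAP, the cap that joins titin molecules at the Z-disc, by 0.70 (0.0376) and PDLIM1 by 0.66 (0.046), all from limma. With all arrays, the differences of FLNC, CRYAB, DES, PALLD and TCAP did not pass, at adjusted p = 0.112 for PALLD and 0.184 for TCAP. A second DES probe set was higher by 0.78 in RV early HF, with adjusted p = 0.0557 with all arrays and 0.0281 without RA late 3 in limma. The chosen DES probe set also lay above every control in RA late HF, at 11.91, 11.34 and 11.98 against 10.56 to 11.30. That difference was 0.79 (SE 0.28, adjusted p = 0.303), and 0.32 in the second probe set (0.432).

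**Figure D4:**
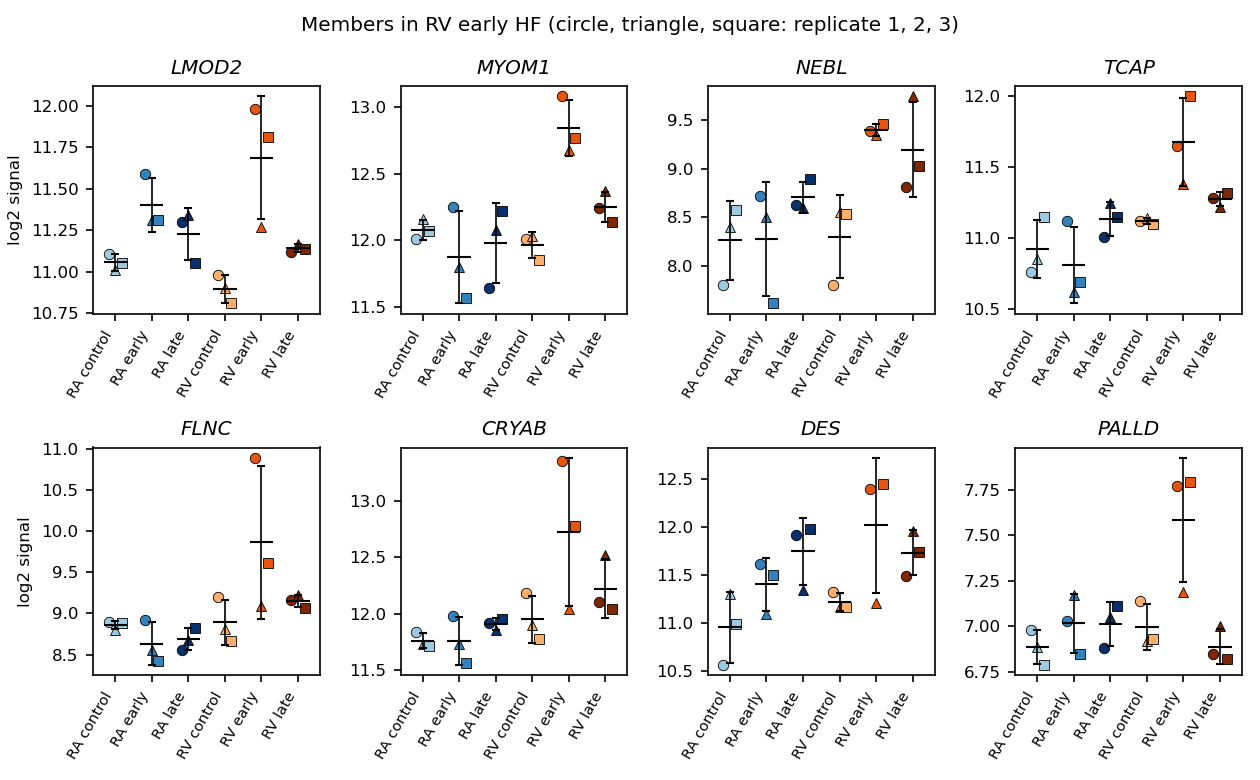
Log2 signal (vertical axis) of 8 members by group (horizontal axis), with replicates 1, 2 and 3 as circle, triangle and square and the mean and SD as bars. In RV early HF, replicate 2 (triangle) lies at 9.09 for FLNC and 11.20 for DES, near the controls, while LMOD2 and MYOM1 lie above the controls in all 3 arrays.

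NEBL, the cardiac nebulette that ties thin filaments to the Z-disc, read 9.39, 9.34 and 9.46 in RV early HF against 7.81, 8.56 and 8.53 in RV controls. Its groups did not overlap and its difference was 1.10 (SE 0.29), but its adjusted p was 0.153. All 5 tested NEBL probe sets were positive, from 0.04 to 1.10, with the chosen one the largest. UNC45B, the chaperone that folds myosin heads, read 9.80, 9.35 and 9.41 against 9.22, 8.83 and 9.01, a difference of 0.50 (SE 0.19, adjusted p = 0.417). The single member with a lower value at unadjusted p under 0.05 was TNNT2, at 13.43, 13.59 and 13.37 against 13.66, 13.75 and 13.71, by -0.24 with adjusted p = 0.412 in limma.

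Of other cell types, the mean of 10 fibroblast markers lay at 7.91 to 8.12 in RV controls and at 8.34 to 8.65 in RV early HF, and that of 14 smooth muscle and pericyte markers at 7.20 to 7.66 and 7.23 to 7.33. The ventricular myocyte markers had a log2 summed signal of 15.12 to 15.17 and 15.13 to 15.19. Of skeletal muscle markers, 10 had a mean of 6.24 to 6.35 and 6.37 to 6.41. The part of these markers in the member results was not tested.

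In RV late HF 0 members passed limma's test with all arrays, where 0% of all probe sets passed, and 0 passed when any 1 of the 18 arrays was left out. Without RA late 3, 0.132% of all probe sets passed. Before adjustment 4 members were higher and 0 lower at p under 0.05, where 4.26% and 4.95% of all probe sets were. In 11 members every late HF array lay above every control and in 3 every one lay below (9.04% and 10.8% of all probe sets). The median over the members was 0.12, beside -0.01 over all probe sets.

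The 4 members in question were PDLIM1, TRIM55, PDLIM3 and NEBL. PDLIM1 read 10.69, 10.90 and 10.74 in RV late HF, above the controls at 10.02 to 10.37, a difference of 0.60 (SE 0.14, adjusted p = 0.386). TRIM55 (MuRF2), a ligase that binds titin at the M-band, read 8.04, 8.30 and 7.89 against 7.39, 7.16 and 6.95, a difference of 0.91 (SE 0.24, adjusted p = 0.418). PDLIM3 read 9.20, 10.00 and 9.87 against 9.17, 8.56 and 8.82, with RV late 1 barely above the highest control and a difference of 0.84 (SE 0.23, adjusted p = 0.418). NEBL read 8.81, 9.74 and 9.03, a difference of 0.89 (SE 0.29, adjusted p = 0.428). Of its 5 tested probe sets 4 were positive and 1 negative, from -0.16 to 0.89. In RV early HF, against the same controls, these 4 members differed by 0.59, 0.57, 0.38 and 1.10.

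Markers of other cells lay apart from control in RV late HF. The mean of 10 fibroblast markers was 7.91 to 8.12 in RV controls and 8.60 to 9.06 in RV late HF, and that of 10 macrophage markers 6.95 to 7.08 and 7.36 to 7.56. The log2 summed signal of 9 atrial myocyte markers was 12.62 to 12.89 and 13.53 to 13.60. In the control chambers PDLIM1, PDLIM3 and TRIM55 had RA minus RV differences of 0.67, 0.83 and 0.59, of which that of PDLIM1 passed with all arrays. The part of these markers in the member values was not tested.

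MYOM1, above control by 0.88 in RV early HF, read 12.24, 12.37 and 12.14 in late HF, a difference of 0.29 with adjusted p = 0.608 in limma. TMOD1, which caps the pointed end of the thin filament, read 10.65, 10.75 and 10.79 in RV late HF against 11.13, 10.87 and 11.02, a difference of -0.28 (SE 0.14, adjusted p = 0.573). TPM2, the beta tropomyosin, read 8.53, 7.40 and 9.06 in RV late HF and 8.83, 7.26 and 7.65 in RV controls, and was named after its values were seen. The smooth muscle myosin gene MYH11 was also high in the 3 arrays with TPM2 above 8.5, at 9.52 in RV control 1, 9.21 in RV late 1 and 10.01 in RV late 3, with 7.96 to 8.29 in the other control and late RV arrays. In RV early 2, however, MYH11 read 9.15 with TPM2 at 8.05.

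The difference between the chambers was tested directly as the early HF effect in RA minus that in RV. With all arrays and also without RA late 3, 0 members passed in limma, against 0.00388% of all probe sets. Before adjustment 1 member was higher and 13 lower at p under 0.05, where 2.09% and 3.36% of all probe sets were. The median over the members was -0.29, beside -0.01 over all probe sets, and 27 of 39 members had a negative difference.

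The members with the smallest p were MYOM1, MYOZ1, UNC45B and MYOM2. The chamber difference of MYOM1 was -1.09 (SE 0.23, adjusted p = 0.42), with -0.21 in RA and 0.88 in RV. That of MYOM2 was -1.50 (SE 0.46, adjusted p = 0.702), with -1.13 in RA and 0.38 in RV. MYOZ1 gave -1.69 (SE 0.49, adjusted p = 0.659), with -0.98 in RA and 0.71 in RV. UNC45B gave -0.91 (SE 0.26, adjusted p = 0.659), with -0.41 in RA and 0.50 in RV. In each of these 4 members the mean of the chosen probe set was lower than control in RA and higher in RV. MYOM2 overlapped its controls in RV early HF, at 9.97, 10.91 and 11.30 against 10.25 to 10.53. There 6 of its 9 probe sets were positive and 3 negative. In RA early HF the second probe sets of MYOM1 and UNC45B differed by 0 and -0.06. The chamber difference was negative in both probe sets of MYOM1, MYOZ1 and UNC45B, and in 8 of 9 of MYOM2.

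Deviations of same-numbered RA and RV arrays correlated positively in the control and early HF groups, at 0.15 to 0.42, though no label pairs them. With the replicate block over the control and early HF arrays alone, a fit chosen after seeing the data, these 4 members passed as lower and 0 as higher, against 0.975% of all probe sets. Their adjusted p were 0.00876 for MYOM1, 0.0177 for MYOM2, 0.0243 for MYOZ1 and 0.0321 for UNC45B in limma. With the block over all 18 arrays, 0 members passed.

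**Figure D5:**
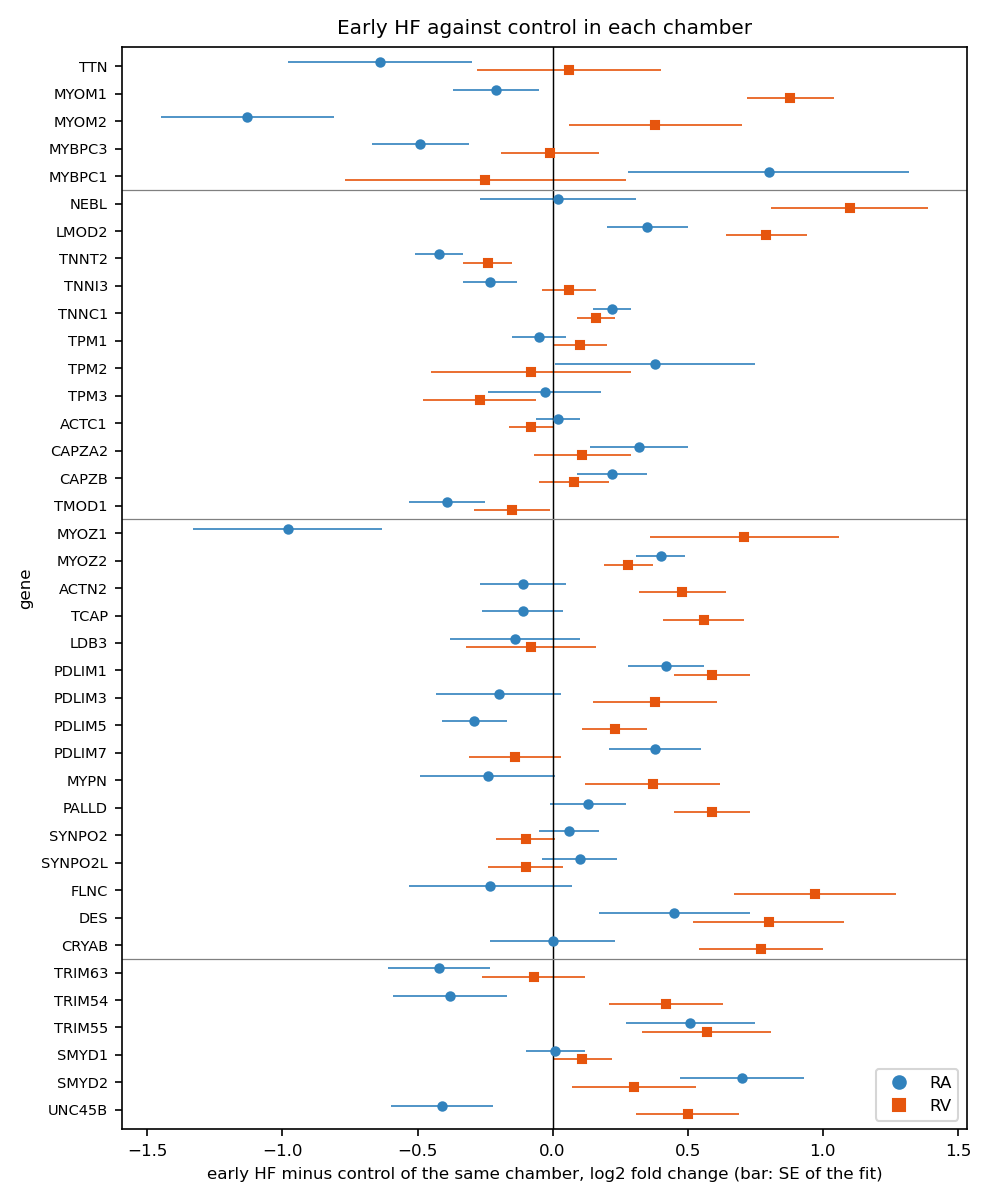
Log2 fold change of early HF against control (horizontal axis, with the SE of the fit as bars) for each tested member (vertical axis), in RA (circles) and in RV (squares). MYOM1, MYOM2, MYOZ1 and UNC45B have the RA value below 0 and the RV value above 0.

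The late HF effect in RA minus that in RV also gave 0 members in limma, against 0.00777% of all probe sets, with 3 members higher and 3 lower at unadjusted p under 0.05 (4.25% and 3.62% of all probe sets). Leaving out RA late 3 gave 2 higher and 7 lower (4.16% and 3.55%) and moved the median over the members from -0.12 to -0.22. SMYD2 had the smallest p, with a difference of 1.31 (SE 0.32, adjusted p = 0.466). Its RV arrays read 9.97, 10.28 and 10.41 in late HF and 10.55, 10.24 and 10.54 in early HF, against 10.03 to 10.29 in RV controls. PDLIM3 gave -1.08 (SE 0.33, adjusted p = 0.536), with -0.24 in RA and 0.84 in RV.

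Further Z-disc members that passed in no comparison with all arrays are named here after their values were seen. Alpha-actinin (ACTN2), the main crosslinker of the Z-disc, read 12.75, 12.23 and 12.67 in RV early HF against 12.19, 12.01 and 12.01 in RV controls, a difference of 0.48 (SE 0.16, adjusted p = 0.319) without overlap. PDLIM5, which brings protein kinase C to the Z-disc, read 11.73, 11.64 and 11.56 in RA early HF against RA controls averaging 11.94 (SD 0.06), and 12.37, 12.28 and 12.54 in RV early HF against 12.26, 12.10 and 12.13 in RV controls. It lay below control in RA and above it in RV, by -0.29 and 0.23. PDLIM7 lay above control in RA early HF, at 8.62, 8.44 and 8.44 against 8.34, 8.16 and 7.86.

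Single arrays set the spread of several others. LDB3 (ZASP), which holds alpha-actinin at the Z-disc, read 9.79 in RV control 1 and 8.14 to 9.10 in the other 17 arrays. Myopalladin (MYPN), a titin and actin partner, ranged within RV early HF from 9.60 in replicate 2 to 10.96 in replicate 1, wider than the 9.87 to 10.06 of RV controls. TRIM54 (MuRF3) followed a like order in RV early HF, at 9.48, 8.65 and 9.03, with controls at 8.85, 8.75 and 8.31. Troponin I (TNNI3) read 13.05 in RA late 1 and 13.61 in RA late 3, which spanned the RA controls at 13.42 to 13.46.

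In their chosen probe sets, other members lay in a narrow range over all 18 arrays. SMYD1, a muscle methyltransferase needed for thick filament assembly, lay between 7.89 and 8.42. CAPZB, the beta subunit of the capping protein at the barbed end of actin, read 7.17 to 7.71, and SYNPO2, an actin-binding Z-disc protein, 6.51 to 6.98. ACTC1 read 13.58 to 13.93 and TPM1, the main cardiac tropomyosin, 13.07 to 13.62. Other SMYD1 probe sets were higher by 0.81 and 0.63 in RV early HF (adjusted p = 0.0605 and 0.16 in limma). The first of these passed without RA late 3 (0.0298). The 3 tested TPM1 probe sets ranged from -0.20 to 0.71 in RA early HF, and none passed. Between the control chambers the chosen TPM1 probe set did not overlap, at 13.18 to 13.29 in RA and 13.45 to 13.52 in RV. That difference was -0.23, with adjusted p = 0.266 in limma. ACTC1 and TPM1 are among the members near the highest signals, where differences can be compressed. None of these 5 genes, named after their values were seen, passed in any comparison with all arrays, which does not show that they were unchanged.

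Of 72 related sarcomere genes that are not members, 61 were tested. In the controls 2 were higher in RA and 5 lower, led by the light chains MYL2, MYL3, MYL4 and MYL7. In RA early HF 1 rose and 1 fell: skeletal actin (ACTA1) by 1.10 (SE 0.16, adjusted p = 0.00605) and the cardiac myosin light chain kinase MYLK3 by -1.26 (SE 0.22, adjusted p = 0.0213). In RA late HF 1 rose, ACTA1, by 1.00 (adjusted p = 0.0253 in limma), and 0 fell. RV late HF gave 0 in limma. Leaving out RA late 3 gave 4 higher and 6 lower in the controls, 3 higher and 1 lower in RA early HF, 2 higher in RA late HF and 1 higher, MYL7, in RV late HF. The genes added in RA were MYL2 and MYL3 in early HF and MYL2 in late HF.

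In RV early HF, 1 related gene rose and 0 fell with all arrays. FHL1, a LIM protein that binds titin, read 11.87, 11.09 and 11.51 against 10.62, 10.29 and 10.25 in RV controls, a rise of 1.10 (SE 0.20, adjusted p = 0.0497). With RA late 3 left out, 5 rose, which added NRAP, a scaffold of myofibril assembly, CSRP3, the muscle LIM protein of the Z-disc, MYOT, the Z-disc protein myotilin, and DAAM1, a formin that assembles actin. The MYOT signal was 8.26, 7.14 and 9.06 in RV early HF and 5.07, 6.38 and 5.86 in RV controls, some of it under the filter limit of 5.31. NRAP read 11.92, 10.89 and 11.90 against 10.76, 10.49 and 10.42, and CSRP3 13.86, 13.21 and 13.56 against 12.94, 13.02 and 12.96. RV early 2 was thus the nearest to control for FHL1, MYOT, NRAP and CSRP3. DAAM1 went the other way, at 9.19, 9.18 and 9.04 against 8.29 to 8.66 in RV controls, with RV early 3 the nearest. The median over the 61 related genes was 0.12 in RV early HF and -0.05 in RA early HF.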

How the data were processed

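The deposited values are log2 signals per probe set on 18 arrays; MAS5 is named as the authors' tool in the submitters' processing notes, with no version or scale. The log2 unit was read from the values, array medians lay between 5.65 and 5.75, and the values were used without another normalization. From 43035 probe sets, 111 controls and the 40% of the remainder with the lowest mean were left out, which left 25752. Symbols came from the platform annotation; 37 of the 40 members' gene IDs matched the reference under the same symbol, and those of TTN, MYOM2 and SYNPO2L were not found there. No coordinates are given, since the reference build differs from that of the array.

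limma 3.58.1 in R 4.3.3 fitted 6 group means over 18 arrays (12 residual degrees of freedom, 11 without RA late 3) with a trended prior. Benjamini-Hochberg adjustment ran over all 25752 probe sets, with a threshold of 0.05 in 7 comparisons. Marker and related lists use the same probe set rule; a summed level is the log2 of the list's summed linear signals. The fit was tested on simulated data. Figures used matplotlib 3.10.9.

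The members, lists, tests and alternatives were chosen with earlier results of these data known. Members that passed in any comparison, with all arrays or without RA late 3, are given by array; in each role the member with the smallest p may be named, and others are named as chosen after their values were seen. Of related genes, up to 6 with the smallest p per comparison are named.

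Replicate numbers were checked by correlating deviations from group means. RA and RV arrays with the same number gave 0.36, 0.24 and 0.42 in controls, 0.17, 0.26 and 0.15 in early HF and 0.05, -0.42 and 0.15 in late HF. From these values the numbers were taken to mark pairs of chambers in the control and early HF groups only. This pairing is inferred, since the labels name no animal and RA and RV arrays with different numbers were not correlated. Within a chamber, arrays of different conditions with the same number gave -0.15 to 0.09 and were not taken as pairs.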

Additional observations from a re-analysis of the deposited data

How the results depend on the processing

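Leaving out each array in turn gave 0 to 4 members past the threshold in RA early HF, 0 to 2 in RA late HF, 0 to 8 in RV early HF, 0 to 0 in RV late HF, 2 to 7 between the control chambers, and 0 to 0 for the chamber difference of either HF effect. With all arrays these counts were 1, 1, 1, 0, 5, 0 and 0. With no signal filter, RA early HF and RV early HF gave 0, and with the stricter filter 2 each; without a trended prior RV early HF gave 2. With array weights the counts were 5 in RA early HF, 6 in RV early HF, 2 in RV late HF and 1 for the early chamber difference. Fitting only the groups compared gave 4 in RA early HF, 0 in RA late HF, 2 in RV late HF and 8 between the control chambers. Without probe sets that may cross-hybridise, RV early HF gave 0 and the control chambers 3. Without RA late 3 and RV late 1 together, chosen after seeing the data, RA early HF and RV early HF gave 2 each and RV late HF 1, which was PDLIM3. With the replicate block, RA early HF and RA late HF gave 0 (adjusted p = 0.307 for TNNT2 and 0.348 for SMYD2 in limma) and RV early HF gave MYOM1 and not LMOD2 (0.079), though the numbers do not pair conditions within a chamber; the block over control and early HF arrays, chosen after seeing the data, gave 4 for the early chamber difference; it changed no other count by over 1.5 times. SMYD2 and MYOZ2 passed between the control chambers when any 1 array was left out. The difference of each member in the comparison in which it passed, with all arrays or without RA late 3, kept its sign under the alternatives run. Over all members, leaving out RA late 3 turned the sign of TPM1 (0.09 to -0.01), TRIM63 (0.08 to -0.07) and TRIM54 (-0.02 to 0.07) in RA late HF and of LMOD2 (-0.07 to 0.02) in the late chamber difference, none of which passed. The causes of these changes were not tested. With 3 arrays per group the number of arrays limits the precision, and signals near 14 may be compressed.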
